A study of Mus musculus with 12 samples.

Results

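Hc, C6, C8a, C8b, C8g and C9 encode proteins of the terminal complement pathway, and Mbl1, Mbl2, Masp1 and Masp2 encode recognition proteins and proteases of the lectin pathway. These 10 genes were taken by their gene symbol in the annotation of the array, and all 10 were among the 10711 genes tested in the liver. They are read by 18 probes, and each of the 18 was detected on 12 of 12 arrays.

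Complement is a cascade of plasma proteins, most of them made by hepatocytes, that marks and lyses microbes. In the lectin pathway, mannose-binding lectins recognize sugars on microbial surfaces, and the associated serine proteases then cut further components so that C3 and C5 are activated. Cleaved C5 gathers C6, C7, C8 and many copies of C9 into the membrane attack complex, a pore in the target membrane, and in several mouse strains the plasma of males holds more terminal complement activity than that of females.

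Whole-liver RNA of 12 mice aged 2 months was hybridized to MouseWG-6 v2.0 arrays, and every mouse carried floxed alleles of Atg7, a gene required for autophagy. The 4 Atg7 KO livers came from Alb-Cre:Atg7 FF mice, in which the albumin promoter drives Cre in hepatocytes. The 4 Olig1-Cre livers came from Olig1-Cre:Atg7 FF mice, in which Cre is under Olig1, a gene of the oligodendrocyte lineage, and recombination in their livers was not tested here. The 4 control livers were Atg7 FF without Cre, 2 from the Alb-Cre line (replicates 1 and 3) and 2 from the Olig1-Cre line (replicates 2 and 4). Each of the 4 Atg7 KO livers was male, while the Olig1-Cre group held 1 male (replicate 2) and the control group 1 male (replicate 1), with 3 females in each. Genotype and sex therefore cannot be told apart between Atg7 KO livers and the 3 female controls. Chip 1 held replicates 1 and 2 of every group and chip 2 held replicates 3 and 4, so both males without Alb-Cre were on chip 1. Values are given as deposited, on the log2 scale, where a difference of 1 is a doubling.

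The arrays detected 39.8% to 43.9% of probes in Atg7 KO livers, 39.1% to 41.9% in Olig1-Cre livers and 34.2% to 37.8% in control livers. The single Atg7 probe was detected on 2 of 12 arrays and so does not check the deletion. Of 18 hepatocyte markers 16 were tested, and all 16 were detected on at least 3 arrays of each group. Their summed level was 16.84 to 17.03 in Atg7 KO livers, 16.85 to 17.19 in Olig1-Cre livers and 17.19 to 17.30 in control livers on the log2 scale. Among the 16, Alb read near the lowest value on the arrays (4.11), at means of 4.69 in Atg7 KO, 4.92 in Olig1-Cre and 5.48 in control livers. Its value is therefore a weak measure of albumin transcript. Atg7 KO replicate 3 stood apart for the complement genes, since it was the lowest of the 4 Atg7 KO livers in 9 of 10 of them, as it was in 31.4% of all genes tested. Its median correlation with the other Atg7 KO arrays was 0.970. The male livers without Alb-Cre had the lowest such values within their own groups, 0.963 for Olig1-Cre replicate 2 and 0.962 for control replicate 1. Control replicate 1 also had the lowest median intensity of the 12 arrays before normalization, 79.8 against 88.8 for the next, Olig1-Cre replicate 2. Its share of probes detected (34.2%) was the lowest as well.

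Promoter sequences are shown for the genes whose levels varied most between livers, from RefSeq on GRCm38.p6, covering 250 bases before to 50 bases after the annotated start. C8a and C8b are neighbours on chromosome 4 with 0 coding genes between them, and the promoters of this pair are shown beside those of Hc and C6. Capitals mark every match, on either strand, to STAT5 (TTCNNNGAA), to GTTAAT, to HNF4 (CAAAGTCCA) or to C/EBP (TTGCNNAA), motifs of factors known to act in liver. GTTAAT is only a part of the HNF1 site, and the full site was not searched for. No match overlaps another.
C8a (chr4:104876349-104876648, minus strand): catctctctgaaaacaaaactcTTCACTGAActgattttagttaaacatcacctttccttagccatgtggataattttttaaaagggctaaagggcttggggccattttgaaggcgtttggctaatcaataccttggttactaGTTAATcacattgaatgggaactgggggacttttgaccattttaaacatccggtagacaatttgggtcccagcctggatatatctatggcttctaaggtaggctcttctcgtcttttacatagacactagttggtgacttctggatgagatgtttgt
C8b (chr4:104766067-104766366, plus strand): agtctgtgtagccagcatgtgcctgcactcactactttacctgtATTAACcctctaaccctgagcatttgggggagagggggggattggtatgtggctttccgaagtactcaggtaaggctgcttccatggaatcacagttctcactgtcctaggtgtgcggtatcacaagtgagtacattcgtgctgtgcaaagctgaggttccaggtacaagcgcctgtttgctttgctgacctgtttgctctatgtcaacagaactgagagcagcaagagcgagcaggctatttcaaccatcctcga
Hc (chr2:35061363-35061662, minus strand): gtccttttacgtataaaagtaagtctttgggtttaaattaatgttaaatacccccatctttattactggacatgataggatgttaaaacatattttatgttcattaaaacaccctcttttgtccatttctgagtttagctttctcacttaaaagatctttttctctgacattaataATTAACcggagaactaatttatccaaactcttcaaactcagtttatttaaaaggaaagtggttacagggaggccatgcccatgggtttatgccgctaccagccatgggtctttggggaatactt
C6 (chr15:4726960-4727259, plus strand): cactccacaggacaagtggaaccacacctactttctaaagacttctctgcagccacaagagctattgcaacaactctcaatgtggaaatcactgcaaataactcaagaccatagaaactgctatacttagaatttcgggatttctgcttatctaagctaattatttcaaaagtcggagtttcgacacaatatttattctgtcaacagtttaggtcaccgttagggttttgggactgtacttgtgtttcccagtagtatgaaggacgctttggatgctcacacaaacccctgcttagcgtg
The C8a window held a STAT5 match at -228 and a GTTAAT match at -107, counted from the start. The C8b window held a GTTAAT match at -206 and the Hc window 1 at -74, and the C6 window held none of the 4 motifs. Over the 10 promoters found for 9 of 10 genes, 2 had a STAT5 match (C8a and Masp2), 3 a GTTAAT match, 1 a C/EBP match (C9) and 0 an HNF4 match. Among all 32851 promoters of this length, 8.3%, 7.1%, 10.8% and 0.475% held these motifs, in the same order. A match describes letters only.

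Between Atg7 KO and control livers, 3 of the 10 genes were lower and 0 were higher at an adjusted p under 0.05 in limma, against 15.3% of all genes lower and 19.5% higher. The 3 were C8g, Masp2 and Mbl1, and the same 3 were lower in Olig1-Cre livers than in controls, where 8.44% of all genes were lower and 12.8% higher. These comparisons share the control livers. Between male and female livers without Alb-Cre, C6 and C8b were higher in males and 0 were lower, against 0.215% of all genes in each direction. Between Atg7 KO and Olig1-Cre livers 0 of the 10 were called, against 0.159% of all genes.

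Hc encodes complement C5, whose larger fragment starts the assembly of the pore. Hc was at 9.63, 10.64, 6.38 and 10.05 in Atg7 KO livers, at 9.24, 10.90, 10.04 and 10.47 in Olig1-Cre livers and at 11.09, 10.81, 10.06 and 10.62 in control livers (replicates 1 to 4 in each list). The groups overlapped, and Atg7 KO replicate 3 lay 3.26 below the next lowest Atg7 KO liver. The log2 fold change of Atg7 KO against control was -1.47 ± 0.75 (SE) with an adjusted p of 0.157, and without Atg7 KO replicate 3 it was -0.54 (adjusted p = 0.179). Because the RNA is from whole liver, fewer hepatocytes and less transcript per hepatocyte cannot be told apart in any of these values.

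C6 encodes the first protein to join C5b. Its level was 8.91, 9.82, 7.16 and 9.50 in Atg7 KO livers, 7.82, 10.83, 7.48 and 7.29 in Olig1-Cre livers and 10.71, 7.38, 7.61 and 7.03 in control livers. The values followed sex in the groups that held both: the single male of each stood far above its 3 females. In males without Alb-Cre C6 averaged 10.77 ± 0.08 (SD, n = 2), and in females 7.43 ± 0.27 (n = 6), a difference of 3.34 ± 0.19 (SE; adjusted p = 5.82e-05 in limma, 10.1-fold, 95% interval 7.56 to 13.6). Both C6 probes showed it, at 3.45 and 3.23, and with chip as a block the difference was 3.18 (adjusted p = 0.00171). The 4 Atg7 KO males lay below both other males, at a mean of 8.85 against 10.71 in the male control and 10.83 in the male Olig1-Cre liver. Among the Atg7 KO males, replicate 3 was within the range of the female livers (7.03 to 7.82) and the other three were above it. Against all 4 controls the fold change was 0.67 ± 0.80 (adjusted p = 0.558), and in a fit with sex as a covariate -1.87 (adjusted p = 0.120). That fit sets the 4 Atg7 KO livers against the male control alone, a single liver assumed to vary like the other livers in the fit, so its p-values hold no replicate of a male control, here and below. The sign of the C6 difference thus depended on the sex of the controls, and in neither fit was the gene called.

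**Figure D1:**
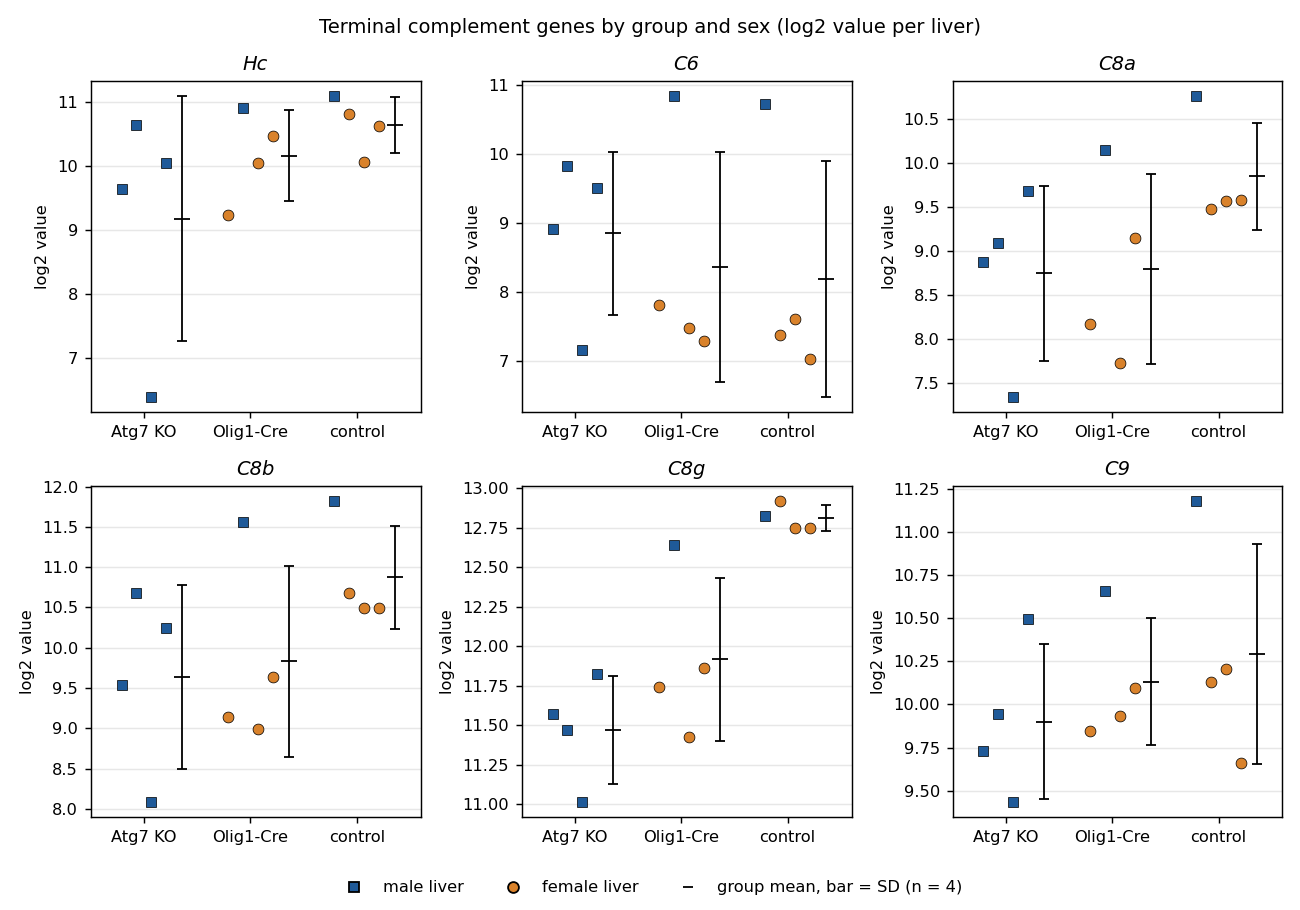
Log2 values of the 6 terminal pathway genes in each of the 12 livers (vertical axis) by group, with squares for males, circles for females and the group mean with its SD at the right of each group. For C6 the male Olig1-Cre and control livers are at 10.83 and 10.71, above every other liver, and for C8g all Atg7 KO and Olig1-Cre livers lie below all controls.

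C8 consists of an alpha, a beta and a gamma chain from separate genes, of which alpha and beta take part in the pore and gamma is a lipocalin bound to alpha. C8a was at 8.87, 9.09, 7.34 and 9.67 in Atg7 KO livers, at 8.17, 10.14, 7.73 and 9.15 in Olig1-Cre livers and at 10.76, 9.47, 9.57 and 9.58 in control livers. The male control was the highest liver, and the Atg7 KO livers reached into the control range only through replicate 4. The fold change of Atg7 KO against control was -1.10 ± 0.46 (adjusted p = 0.0861), or -0.63 (0.166) without Atg7 KO replicate 3.

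C8b, the beta chain, was at 9.54, 10.68, 8.08 and 10.24 in Atg7 KO livers, at 9.14, 11.56, 8.99 and 9.64 in Olig1-Cre livers and at 11.82, 10.68, 10.50 and 10.50 in control livers. As with C8a, the male Olig1-Cre and control livers were highest. Atg7 KO against control gave -1.24 ± 0.51 (adjusted p = 0.0830), or -0.72 (0.162) without Atg7 KO replicate 3. In males without Alb-Cre C8b was 3.44-fold above females (log2 1.78 ± 0.24, adjusted p = 0.0164), a call lost with chip as a block at nearly the same difference (1.78, adjusted p = 0.157) and without Olig1-Cre replicate 2 (1.26, adjusted p = 0.0607). Among females alone, C8a and C8b had lower values in all 3 Olig1-Cre livers than in all 3 control livers, an ordering found in 21.8% of all genes. Fitted on those 6 females, Olig1-Cre against control was -1.19 for C8a (adjusted p = 0.0190) and -1.30 for C8b (adjusted p = 0.00111), whereas over all 8 livers neither was called (-1.05, adjusted p = 0.150, and -1.04, adjusted p = 0.184).

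C8g, the gamma chain, was at 11.57, 11.47, 11.01 and 11.82 in Atg7 KO livers, at 11.74, 12.64, 11.42 and 11.86 in Olig1-Cre livers and at 12.82, 12.92, 12.75 and 12.75 in control livers. The controls lay close together and neither Cre group overlapped them, an ordering shown by 15.6% of all genes for Atg7 KO and 9.72% for Olig1-Cre. C8g was 2.53-fold lower in Atg7 KO livers than in controls (log2 -1.34 ± 0.17, 95% interval -1.71 to -0.97, adjusted p = 0.000217). The difference was -1.35 on chip 1, -1.33 on chip 2 and -1.19 without Atg7 KO replicate 3, each called, and from the single male control it was -1.36. In Olig1-Cre livers it was 1.86-fold lower (-0.89 ± 0.22, adjusted p = 0.0217). The male Olig1-Cre liver was the highest of its group and closest to the controls, and without it the difference was -1.13 (adjusted p = 0.000507). The call was lost without Olig1-Cre replicate 1, 3 or 4 or control replicate 2 or 3, with adjusted p from 0.0506 to 0.0663. Between the Cre groups it was -0.45 ± 0.26 (95% interval -1.03 to 0.13, adjusted p = 0.461).

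C9, the protein that polymerizes into the wall of the pore, was at 9.73, 9.94, 9.43 and 10.50 in Atg7 KO livers, at 9.85, 10.66, 9.93 and 10.10 in Olig1-Cre livers and at 11.18, 10.13, 10.21 and 9.66 in control livers. Values of the 3 groups overlapped, and the male control was highest. Atg7 KO against control was -0.40 ± 0.32 (adjusted p = 0.367), and the brightest of its 3 probes alone gave 0.03. Against the single male control, the highest liver, the difference was -1.28 (adjusted p = 0.0352 in the fit with sex, which rests on that liver), while with the male Olig1-Cre liver added beside that control it was -1.02 (adjusted p = 0.0725).

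The genes of the lectin pathway spanned narrower ranges. Mbl1 encodes mannose-binding lectin A, 1 of the 2 mannose-binding lectins of the mouse. Its level was 10.51, 10.43, 9.57 and 10.17 in Atg7 KO livers, 10.29, 10.51, 10.24 and 10.08 in Olig1-Cre livers and 11.07, 10.67, 10.72 and 10.63 in control livers. All livers of both Cre groups were below all controls, an ordering shown by 15.6% of all genes for Atg7 KO alone and 9.72% for Olig1-Cre alone. The fold change was -0.60 ± 0.21 for Atg7 KO against control (adjusted p = 0.0454) and -0.49 ± 0.14 for Olig1-Cre against control (adjusted p = 0.0367). The call in Atg7 KO livers rested near the threshold, since it was lost without Atg7 KO replicate 3 (-0.40, adjusted p = 0.0748) or replicate 4, without any 1 of the 4 controls (adjusted p from 0.0609 to 0.101) and on either chip alone (-0.40 and -0.80, adjusted p = 0.236 and 0.0745). The fit with sex (-0.90, adjusted p = 0.0712) lost it too, as did a fit with controls of the Alb-Cre line alone (-0.73, adjusted p = 0.0896). In Olig1-Cre livers it was lost without Olig1-Cre replicate 1, 3 or 4 or control replicate 1, 2 or 3 (adjusted p from 0.0589 to 0.0955).

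Mbl2, which encodes mannose-binding lectin C, ran the other way. It was at 11.95, 11.70, 11.90 and 12.14 in Atg7 KO livers, at 12.26, 11.69, 12.09 and 12.20 in Olig1-Cre livers and at 10.85, 11.61, 11.56 and 11.70 in control livers. The male control was the lowest liver and the male Olig1-Cre liver the lowest of its group. Atg7 KO against control was 0.49 ± 0.19 (adjusted p = 0.0722) and Olig1-Cre against control 0.63 ± 0.21 (adjusted p = 0.0539), neither called. With sex as a covariate Olig1-Cre against control passed at 0.63 (adjusted p = 0.00417). The fit with sex gave 1.07 for Atg7 KO (adjusted p = 0.00687), which is the distance to the single male control, the lowest liver, while with the male Olig1-Cre liver added beside it the difference was 0.65 (adjusted p = 0.138).

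**Figure D2:**
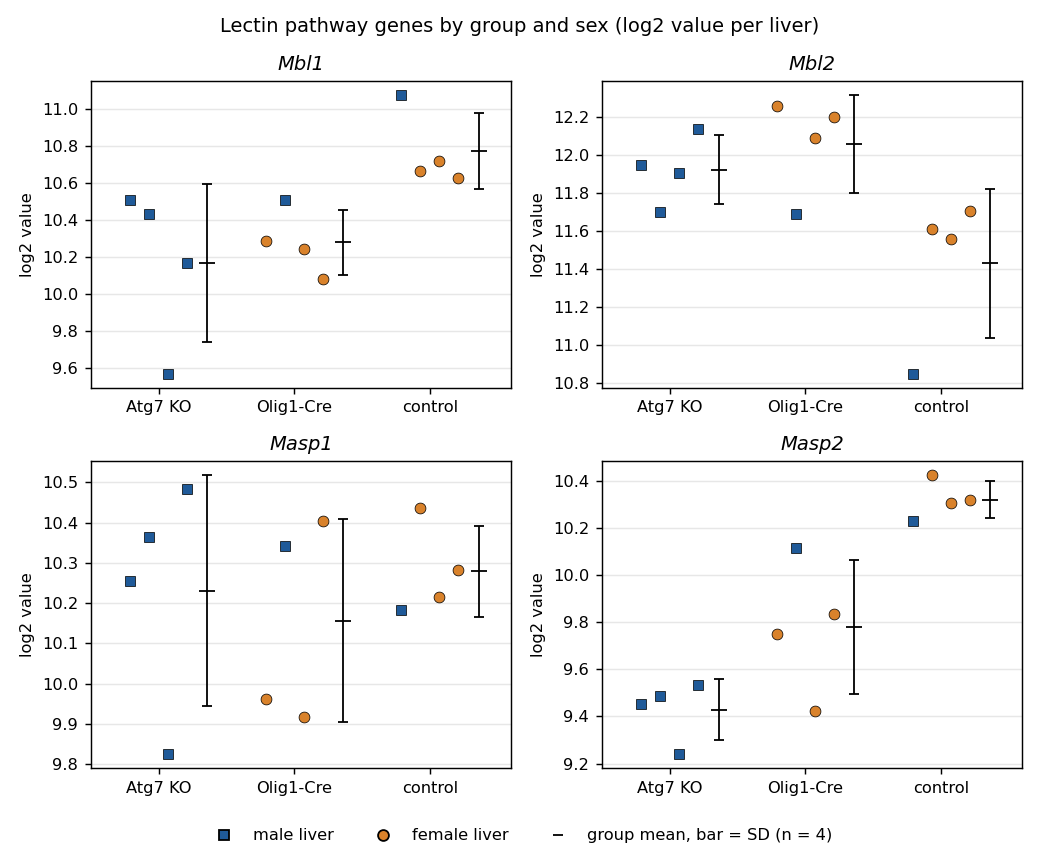
Log2 values of the 4 lectin pathway genes in each of the 12 livers (vertical axis) by group, drawn as for the terminal genes. Masp2 and Mbl1 lie below all controls in every Atg7 KO and Olig1-Cre liver, Mbl2 is lowest in the male control at 10.85, and the groups overlap for Masp1.

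Masp2 encodes the serine protease that cleaves C4 and C2 once a lectin has bound. It was at 9.45, 9.48, 9.24 and 9.53 in Atg7 KO livers, at 9.75, 10.12, 9.42 and 9.83 in Olig1-Cre livers and at 10.23, 10.42, 10.31 and 10.32 in control livers. The controls were all above both Cre groups, as in 15.6% of all genes for Atg7 KO alone and 9.72% for Olig1-Cre alone. The Atg7 KO values overlapped only with the lowest Olig1-Cre liver. Masp2 was 1.86-fold lower in Atg7 KO livers than in controls (-0.89 ± 0.12, 95% interval -1.15 to -0.63, adjusted p = 0.000293), and called on each chip (-0.86 and -0.93). All 4 Masp2 probes were lower, from -0.50 to -1.10, of which 3 passed on their own. In Olig1-Cre livers it was -0.54 ± 0.15 (adjusted p = 0.0314), a call kept without Olig1-Cre replicate 2 or control replicate 1 and lost without any 1 of the other 6 livers (adjusted p from 0.0579 to 0.0856). No Masp2 probe passed on its own in that comparison (adjusted p from 0.0659 to 0.206), and the brightest gave -0.33 (adjusted p = 0.198). Between the Cre groups Masp2 was -0.35 ± 0.15 with an unadjusted p of 0.0460 and an adjusted p of 0.339.

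Masp1 encodes the protease that activates Masp2. It was at 10.25, 10.36, 9.82 and 10.48 in Atg7 KO livers, at 9.96, 10.34, 9.92 and 10.40 in Olig1-Cre livers and at 10.18, 10.44, 10.22 and 10.28 in control livers. The groups overlapped fully and Atg7 KO against control was -0.05 ± 0.16 (95% interval -0.39 to 0.30, adjusted p = 0.838). Of its 3 probes, 1 gave 0.26 and the others -0.13 and -0.05, none called. Which transcript each probe reads was not analysed here.

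**Figure D3:**
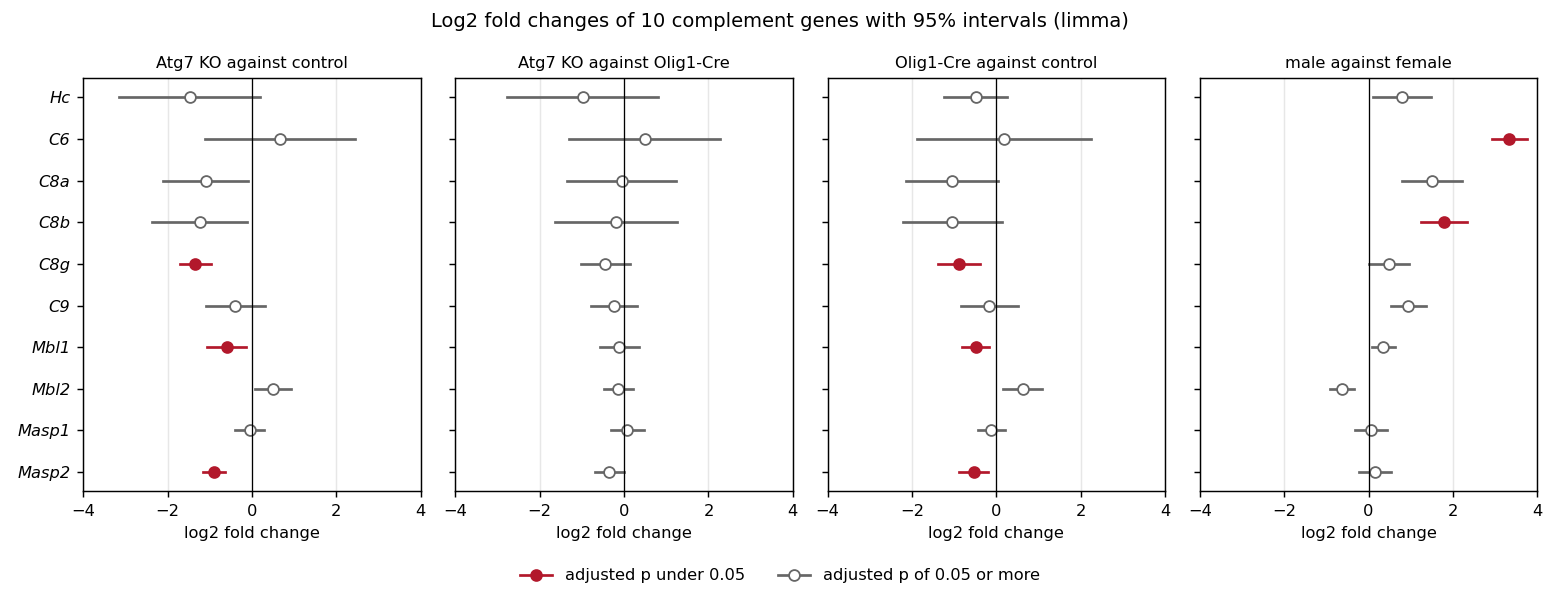
Log2 fold changes of the 10 genes (horizontal axis) with 95% intervals from limma in the 4 comparisons, filled where the adjusted p was under 0.05. C8g, Masp2 and Mbl1 are filled in both comparisons with controls, C6 and C8b in males against females, and none between the Cre groups.

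The median log2 fold change of the 10 genes was -0.75 in Atg7 KO against control and -0.49 in Olig1-Cre against control, while the median of all genes was -0.01 in Atg7 KO against control. Between the Cre groups it was -0.17, with intervals that left room for large differences in several genes, from -2.77 to 0.80 for Hc and from -1.30 to 2.28 for C6. In that comparison 1 of the 10 genes, Masp2, had an unadjusted p under 0.05, and 17 genes of all tested (0.159%) were called. Each array was also scaled to 1 median over all 45281 probes, in place of the quantile scale of the deposited values. Since the arrays detected 34.2% to 43.9% of probes, that median lay below the detected probes. There the median of all genes moved to 0.59 in Atg7 KO against control, and C9 (0.21) and Masp1 (0.56) turned sign. Relative to that shift the median of the 10 genes was -0.74, C8g was at -1.58 and Masp2 at -0.84. Of the 10, C8g alone was called on that scale (-0.99 before the shift is taken off, adjusted p = 0.0109). The split of all calls moved to 96.8% higher, against 56.1% on the deposited scale.

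**Figure D4:**
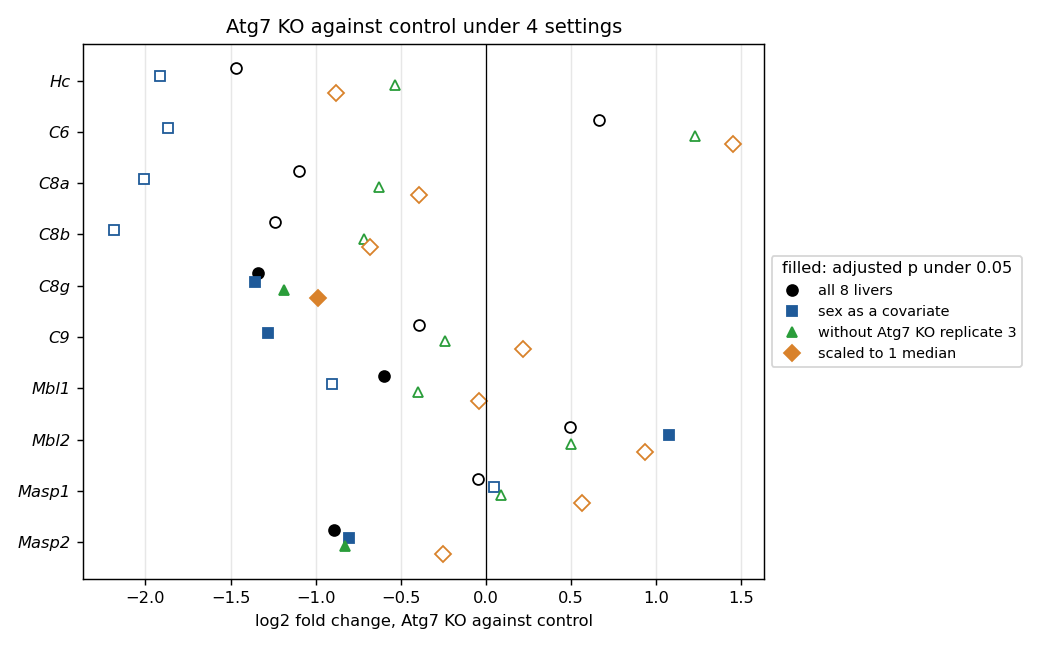
Log2 fold changes of Atg7 KO against control (horizontal axis) for each of the 10 genes over all 8 livers, with sex as a covariate, without Atg7 KO replicate 3 and with each array scaled to 1 median, filled where the adjusted p was under 0.05. C8g is called in all 4 settings, of which that with sex rests on 1 male control, and C6 lies above 0 in 3 of them and at -1.87 with sex.

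Split by sex, 7 genes (C6, Hc, C8a, C8b, C8g, C9 and Masp2) were lower in all 4 Atg7 KO males than in both other males, against 18.3% of all genes, and Mbl2 was higher in all 4, against 20.3%. The differences from the male control were between -1.28 and -2.18 for the 6 terminal genes, -0.80 for Masp2, -0.90 for Mbl1, 1.07 for Mbl2 and 0.05 for Masp1. They rest on a single male control, whose array had the lowest median intensity before normalization (79.8). For Hc that array read 930.4, against 193.6 to 1637.4 in Atg7 KO livers and 1704.4 in the male Olig1-Cre liver. For C8g it read 3615.2, against 2752.4 to 4584.2 and 5437.9. The level of the male control by itself was not compared between normalizations. The male against female differences, which include this liver, changed with the scale, as given below. Both males without Alb-Cre were above all 6 females in C6, Hc, C8a, C8b and C9, an ordering held by 3.79% of all genes. C8g, Masp1, Masp2 and Mbl1 did not show it. Besides C6 and C8b, the male against female differences were 1.51 for C8a, 0.94 for C9, 0.79 for Hc and -0.63 for Mbl2, with adjusted p between 0.0776 and 0.269. With each array scaled to 1 median they were 0.85, 0.28, 0.11 and -1.33, and C6 and C8b were at 2.75 and 1.17. The median of all genes on that scale was -0.49. Atg7 KO replicate 3, the low liver in the complement genes, was also the lowest of the 4 Atg7 KO livers in 8 of 10 male-biased liver genes, against 31.4% of all genes. Of these 8, Hsd3b5 was detected on 0 Atg7 KO arrays, and Cyp2d9 was at 11.89 against 11.95 in the next lowest liver. Summed, the 10 male-biased genes ran from 13.89 to 15.05 in Atg7 KO livers, from 14.02 to 15.83 in Olig1-Cre livers and from 14.07 to 16.23 in control livers. The part of this in the complement values of replicate 3 was not tested.

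**Figure D5:**
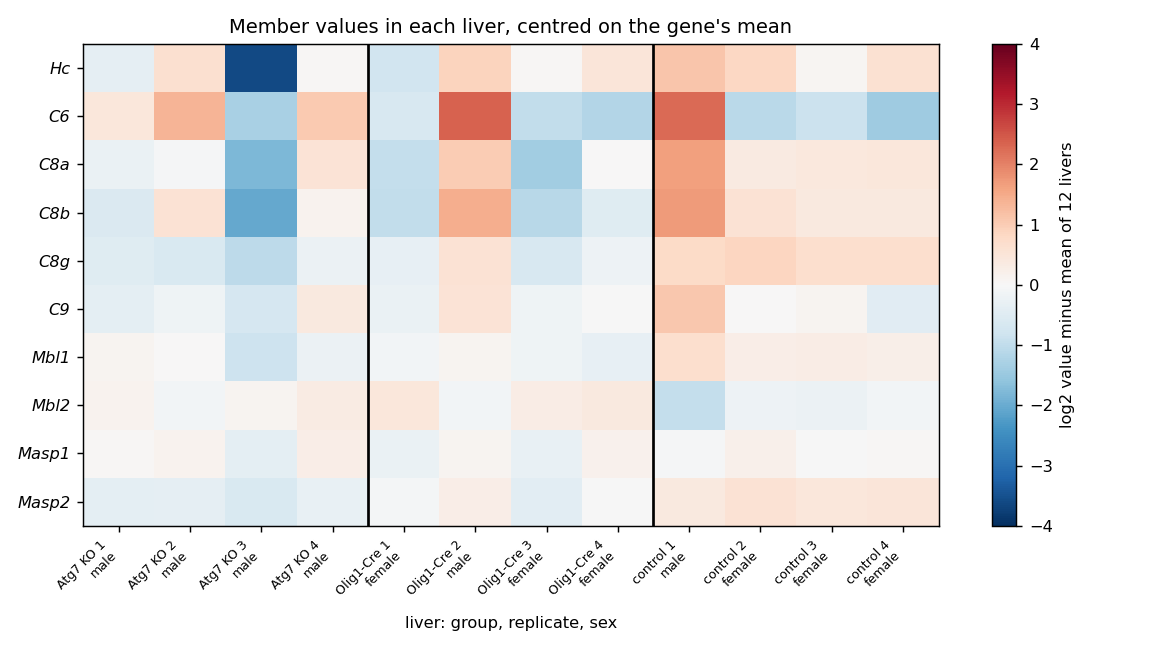
Each gene's log2 value in each liver minus its mean over the 12 livers (colour), with genes down and livers across, grouped as Atg7 KO, Olig1-Cre and control and marked by sex. Atg7 KO replicate 3 is the darkest blue column in Hc, C8a and C8b, and the male Olig1-Cre and control livers are red in the terminal genes.

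Over the 12 livers, C8a and C8b ran together (Pearson r = 0.95), as did C8g and Masp2 (r = 0.98). Mbl2 correlated negatively with each of the other 9 genes, from -0.13 with Masp1 to -0.74 with Mbl1. Outside the 10, the genes most like C8g and Masp2 were Nat8f1 (r = 0.99) and Lin7a (r = 0.99), and those most like C6 and C8b were Lrig1 (r = 0.93) and Egfr (r = 0.96). These livers share groups, sexes and chips, so the correlations describe them and carry no test.

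Of 37 other complement genes listed, 24 were tested, and in Atg7 KO livers 5 were higher and 8 lower than in controls (19.5% and 15.3% of all genes), with a median of -0.18. The 3 C1q chains, the recognition unit of the classical pathway made mainly by macrophages, were higher, C1qa by 1.21, C1qb by 1.59 and C1qc by 1.37. Colec10, a collectin that also starts the lectin pathway, was lower (-1.17), as was Fcna, a ficolin (-0.55). Colec11, the other measured gene of that list, was not called (0.16). In Olig1-Cre livers Colec11 was higher than in controls (0.58, called), while Colec10 (-0.41) and Fcna (-0.61) were not called. Of 10 regulators measured, 5 were lower and 0 higher. Cd55, Cd59a and Cd59b, membrane regulators that limit convertases and the pore, were lower by 0.92, 0.56 and 0.64 on the log2 scale. Among the fluid-phase regulators Cpn1, Cpn2 and C4bp averaged 8.82, 7.96 and 10.66 in Atg7 KO livers, against 9.46, 8.79 and 10.28 in controls. Of the 2 measured genes of the alternative pathway, Cfp, encoding properdin, was higher (0.66) and Cfb, encoding factor B, lower (-0.63). In Olig1-Cre livers 4 of the 24 were higher and 5 lower than in controls (12.8% and 8.44% of all genes), with C1qa, C1qb and C1qc again higher (1.06, 1.31 and 1.29) and Cd55, Cd59a and Cd59b again lower (-0.56, -0.77 and -0.60), and 0 of the 24 were called between the Cre groups or the sexes.

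Markers of liver cell types were counted in the same comparison, in which 15.3% of all genes were lower and 19.5% higher. In Atg7 KO livers 7 of 16 hepatocyte markers were lower than in controls and 0 higher (median -0.43). Of 16 macrophage and neutrophil markers 11 were higher (median 0.88) and 1 lower, Cd163 (-1.78). Stellate cell and fibrosis markers were higher in 9 of 13 (median 1.19). Of 10 cholangiocyte markers listed 5 were tested, and 4 of these were higher. However, Col1a2, Tagln and Timp1 of the stellate list and Krt19, Cldn4 and Cftr of the cholangiocyte list were detected on 0 control arrays. These 6 passed the filter on detection only through the Cre groups, so the counts of both lists follow in part from the filter. Epcam and Prom1 had probes but were detected on too few arrays to be tested. Of 9 endothelial markers 1 was higher, Lyve1 (0.74), and 2 were lower, Stab2 (-0.88) and Oit3 (-0.95). Of 5 B and T cell markers 0 were called. Summed, the macrophage and neutrophil markers ran from 13.31 to 13.54 in Atg7 KO livers, from 12.75 to 13.35 in Olig1-Cre livers and from 11.83 to 12.27 in control livers. The stellate cell and fibrosis markers ran from 10.63 to 11.28 in Atg7 KO livers, from 10.18 to 10.77 in Olig1-Cre livers and from 9.58 to 10.32 in control livers, whereas the endothelial markers were at 10.55 to 10.74 in Atg7 KO livers, 10.69 to 10.95 in Olig1-Cre livers and 10.90 to 11.18 in control livers. The part of these cells in the complement values was not tested.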

How the data were processed

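Liver RNA of 12 mice was compared between 4 Atg7 KO, 4 Olig1-Cre and 4 control livers, with groups, sex, line and chip taken from the labels. Replicate numbers were given here and pair no animals, so that p-values rest on the variation among these livers only. The 10 genes and all lists were chosen with earlier results of these data known. For every probe the authors deposited an intensity, the mean bead signal before any normalization, and a detection p-value, and a table of log2 values for all arrays. GenomeStudio and limma 3.22.1 are given in the submitters' processing notes, while the methods name a cubic spline, which the log2 values do not follow: neqc run here on the intensities differed from them by at most 0.027.

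The deposited log2 values were analysed with limma 3.58.1 under R 4.3.3. Of 45281 probes, 19528 were kept because 4 or more of the 12 arrays detected them (p-value under 0.05). The platform annotation gives 34885 probes 1 symbol, 18 several and leaves 10378 unnamed here, and a gene is the median of its kept probes. No symbol changed when updated through its Entrez identifier. Pairs of groups were fitted on their 8 arrays with lmFit and eBayes, two-sided, without covariates, and sexes on the 8 control and Olig1-Cre arrays with group as a covariate. P-values were adjusted by Benjamini-Hochberg over 10711 genes and called under 0.05. A summed list level is the log2 of the sum of its members' linear values. Alternatives changed the normalization, filter, probe summary, chip, sex and controls or left out 1 liver. The fits were also run on simulated data with independent normal noise for each gene. Those data held no outlying liver and no array of low intensity, so they cannot show how the fits behave with such livers. The text names all 10 genes, their probes, the nearest gene by correlation, up to 3 called genes of each list, and others after their values were seen. Precision is limited by the number of arrays.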

Additional observations from a re-analysis of the deposited data

Results flagged for a closer look

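In C6, the male liver of the Olig1-Cre group (replicate 2, 10.83) and the male liver of the control group (replicate 1, 10.71) each lay far from the 3 females of their group. The same male control stood apart from its group in C8a (10.76) and in C8b (11.82). Within groups of 4 livers, chance alone sets a value this far apart in about 1 in 20 groups. All 10 genes were searched in every group, so a few such values can arise by chance. That rate is for 4 livers of a kind, whereas each flagged liver was the only male of its group.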

How the results depend on the processing

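In Atg7 KO against control, C8g was called in every setting tried, and Masp2 in every setting but scaling to 1 median and 1 of its 4 probes alone, and among these settings the fit with sex rests on a single male control. The labels give no replicate numbers. No paired analysis was possible because the numbers used here follow the order of the records and pair no animals. Leaving out 1 liver at a time left 2 to 4 of the 10 genes called in Atg7 KO against control (2989 to 3636 of all genes), 0 to 6 in Olig1-Cre against control (1086 to 3143), 0 between the Cre groups (3 to 29) and 1 to 3 between the sexes (29 to 114). Precision is limited by the 4 arrays per group and by 1 male in each of the groups that hold both sexes, and the causes of the changes below were not tested.

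Scaling each array to 1 median called 1 of the 10 genes in Atg7 KO against control and 0 in Olig1-Cre against control. It moved the median of all genes to 0.59, to 0.18 between the Cre groups, to 0.40 for Olig1-Cre against control and to -0.49 for males against females, and the share of calls that were higher to 96.8%, 76.3%, 97.9% and 0.8% (56.1%, 47.1%, 60.4% and 50% as deposited). It called 38 genes between the Cre groups and 3999 between the sexes. It turned C9 (0.21) and Masp1 (0.56) in Atg7 KO against control, C8a (0.15) and Mbl1 (0.0319) between the Cre groups, C9 (0.31) and Masp1 (0.36) in Olig1-Cre against control, and C8g (-0.10), Masp1 (-0.67), Masp2 (-0.57) and Mbl1 (-0.35) between the sexes.

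Of the 10 genes, 6 were called in Olig1-Cre against control with sex as a covariate (2812 of all genes) and 6 among females (3158). By contrast 0 were called without a filter on detection (1346), 0 on chip 1 and 0 with controls of the Olig1-Cre line alone (744). Between the sexes 1 was called without the filter, 1 with chip as a block and 1 on chip 1. Of all genes, Atg7 KO against control called 1872 on chip 1, 1601 on chip 2, 2171 with sex and 978 in males alone, an alternative chosen after seeing the data, and Olig1-Cre against control called 16 on chip 1 and 1247 on chip 2. Between the Cre groups 6 were called by quantiles without background correction, 4 without the filter, 32 when detection was asked on all arrays of a group, 33 with the brightest probe, 8 with chip as a block, 0 on chip 1, 3 on chip 2, 52 with all 12 arrays in 1 fit and 205 with sex. Between the sexes 23 were called by quantiles without background correction (69.6% higher), 18 without the filter, 10 with chip as a block and 4 on chip 1.

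Other reversals were of uncalled values. With sex, C6 was -1.87 and Masp1 0.0484 in Atg7 KO against control, and C6 -1.99, Masp1 -0.11 and Mbl2 0.23 between the Cre groups. In Atg7 KO against control C6 was -1.93 in males alone and -0.31 with controls of the Alb-Cre line, where Masp1 was 0.0323, and C9 was 0.0310 on chip 2. Between the Cre groups Hc was 0.0694 and Mbl1 0.0739 on chip 1, and C8a 0.0687 and Masp1 -0.0071 on chip 2. In Olig1-Cre against control C9 was 0.0798 on chip 2 and 0.24 with controls of the Olig1-Cre line. The brightest probe, and that probe on its own, gave 0.0294 for C9 and 0.26 for Masp1 in Atg7 KO against control, -0.0419 for Masp1 between the Cre groups, 0.13 for C9 and 0.30 for Masp1 in Olig1-Cre against control, and -0.16 for Masp1 between the sexes. Single Masp2 probes gave 0.21 between the Cre groups and -0.0494 between the sexes. Without 1 liver, Masp1 ran from -0.13 to 0.0878 in Atg7 KO against control, and between the Cre groups C8a ran from -0.41 to 0.42, C8b from -0.54 to 0.38, Masp1 from -0.0087 to 0.21 and Mbl1 from -0.22 to 0.0897. In Olig1-Cre against control C6 ran from -0.65 to 1.02 and C9 from -0.37 to 0.13, and between the sexes Masp1 ran from -0.13 to 0.25 and Masp2 from -0.12 to 0.45.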
